A study of Mus musculus with 68 samples.

Results

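Glycosaminoglycan synthesis and sulfation genes were followed across the zones of the mouse growth plate. The set is a list of 39 genes for building, sulfating and trimming chondroitin, heparan and hyaluronan chains, and all 39 were found among the 23420 gene symbols of the count table. They were chosen by function, with earlier results of these data known, and their rows were read over zones, ages and fixation. By role, 6 build the linkage to the core protein, 6 extend the chondroitin chain and 9 sulfate or epimerise it. A further 5 supply sulfate, 3 supply sugar nucleotides, 2 make hyaluronan, 3 extend heparan chains and 5 modify heparan.

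Cartilage matrix holds water because its proteoglycans carry long, densely sulfated glycosaminoglycan chains. A tetrasaccharide linker is first built on the core protein, the chain is then polymerised from sugar nucleotides, and sulfotransferases add sulfate from the donor PAPS in the Golgi. Inherited defects in sulfate uptake, in PAPS synthesis or in chondroitin sulfation give short stature and misshapen growth plates. Heparan sulfate chains hold growth factors, and their sulfation pattern sets which factors bind.

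The libraries came from mice of mixed background, with no transgene or treatment named in the labels. Cells were taken by laser capture from 10-micron sections of growth plate cartilage and made into SMART-seq2 libraries, in which whole transcripts are copied and amplified from little RNA. At postnatal day 28 (P28), xylene-fixed sections gave 4 resting, 5 hypertrophic and 5 proliferative libraries, and ethanol-fixed sections gave 8 resting, 9 hypertrophic and 9 proliferative libraries. At day 2 (P2), ethanol-fixed sections gave 9 resting, 8 hypertrophic and 8 proliferative libraries, and a single P3 animal gave 1 library per zone. The ethanol libraries that reached 100000 counts were pooled by animal and zone, giving 21 sums from animals A, B and D at P28 and from 4 animals per zone at P2 (resting A, D, F and G, hypertrophic A, C, D and G, proliferative A, D, E and G). Zone tests compared sums within an animal. P2 animals C, E and F had 1 sum each, so the fitted P2 zone differences rest on animals A, D and G. The labels of P28 animal B and P2 animal D name animals in the plural, so each may be a pool. In laser-captured tissue, fewer cells of a type and less RNA per cell cannot be told apart.

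Totals ran from 108601 to 3347722 counts per sum, and the number of the 39 genes with a count ran from 10 to 37. All 9 chondrocyte markers had counts in each zone and age. The summed level of 10 prehypertrophic and hypertrophic markers was 75230 to 118800 CPM (counts per 1000000, TMM-normalised) in P28 hypertrophic sums and 3134 to 8493 CPM in P28 proliferative sums, and 7293 to 82410 CPM in P2 hypertrophic sums against 765.9 to 1511 CPM in P2 proliferative sums. The P28 resting sums lay at 1093 to 9513 CPM for the same list, the highest being animal A. The 45S rRNA precursor Rn45s took 38.4% to 81.0% of counts in hypertrophic sums, 8.51% to 38.4% in resting sums and 14.8% to 55.7% in proliferative sums. Its part in the zone differences given here was not tested. Counts of Xist, expressed in females, and of Y-linked genes went against the animal labels in places. At P28 the ethanol sums of animal D held 0 Xist and 76 Y-linked counts in resting, 2 and 179 in hypertrophic, and 267 and 4 in proliferative cartilage, so the proliferative sum did not match the other zones of that label. The P2 resting sum of animal G held 128 Xist and 747 Y-linked counts, and the P3 proliferative library held 355 and 311, a mixture in each. P28 zone and age differences given with an error for any of the 39 genes therefore also have a value without animal D. Without it, 1 of the 39 genes (Chst11) was called for P28 hypertrophic against proliferative, as it was with D. For P28 resting against hypertrophic, 1 (Chst11) was called that had missed the threshold with D. The Chsy1 and Csgalnact1 calls of that comparison were lost without D. Outside Rn45s, Lars2 and Glra2, the hypertrophic sum of P2 animal C held 20032 counts, the fewest of the 21 sums.

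Per kilobase of exon, the sulfate donor synthase Papss2 and the chondroitin 4-O-sulfotransferase Chst11 stood above the other 37 genes on average over all zones. In hypertrophic sums alone that order did not hold, and Chsy1 and Ugp2 averaged more per kb than Chst11 at both ages. Over the 21 sums Papss2 averaged 154 ± 107 CPM per kb and Chst11 averaged 122 ± 147 CPM per kb (SD, n = 21 sums). Chsy1, a chondroitin chain polymerase, averaged 41.7 CPM per kb, and Csgalnact1, which starts chondroitin chains, averaged 40.1 CPM per kb. Ugp2, which makes UDP-glucose, averaged 36.6 CPM per kb, and Impad1, a Golgi phosphatase that clears the spent sulfate donor, averaged 30.2 CPM per kb. Neighbours in this order overlapped widely in their spread. At the other end, Chst13 had 0 counts in every library and Chst7 had 1 count over the 21 sums. Filtering on low counts kept 32 of the 39 genes for the zone tests and left out Hs6st1, B4galt7, Ust, Chst3, Has3, Chst7 and Chst13.

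**Figure D1:**
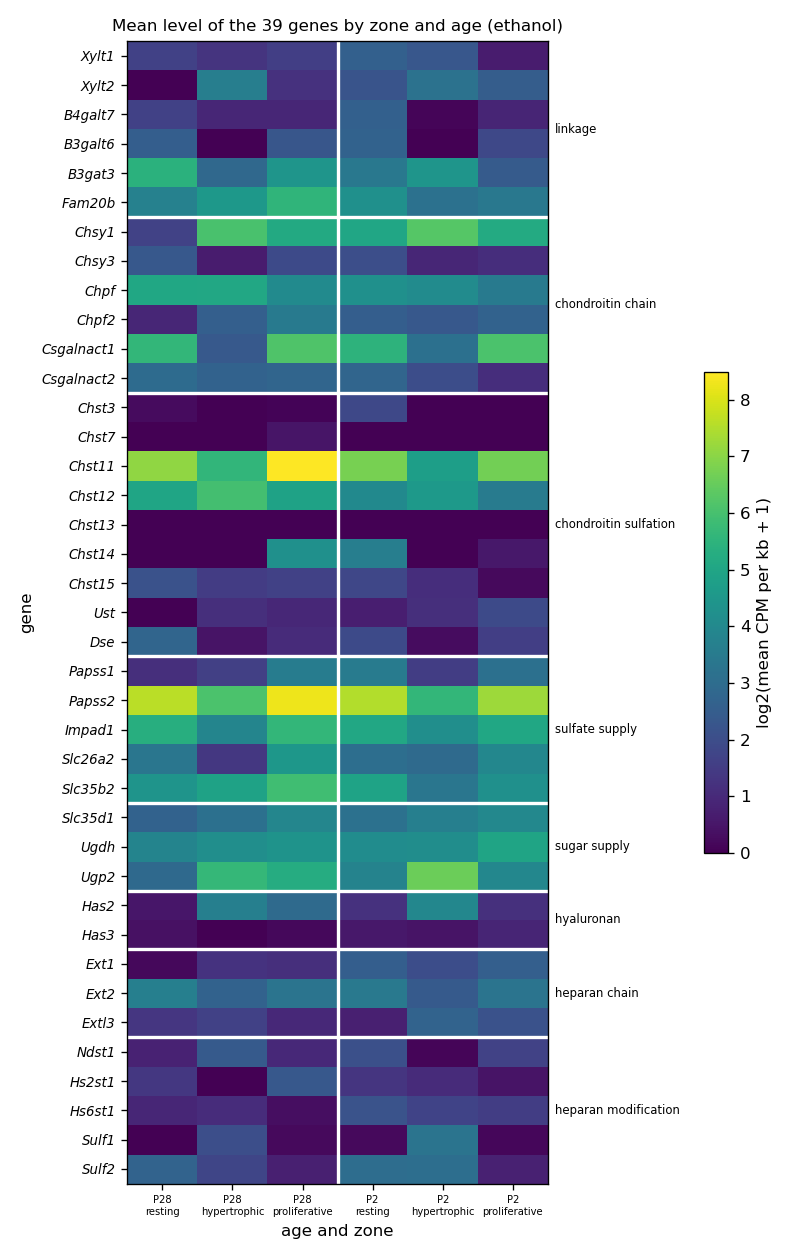
Mean level of the 39 genes (rows, grouped by role) in the ethanol sums of each age and zone (columns), as log2(mean CPM per kb + 1) in colour, from 3 sums per zone at P28 and 4 at P2. Papss2 and Chst11 are the brightest rows in the resting and proliferative columns. In the hypertrophic columns Chsy1 and Ugp2 are brighter than Chst11 at both ages, and brighter than Papss2 at P2. Sulf1 is seen mainly in the hypertrophic columns.

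Promoter windows of 300 bases around the annotated starts are shown for Chst11 and Papss2, the pair with the highest mean levels per kilobase over all zones. Both come from RefSeq on GRCm38.p6, which held windows for 28 of the 39 genes. The Chst11 window lies at chr10:82985247-82985546 on the plus strand, and the first Papss2 window at chr19:32595465-32595764 on the plus strand. Capitals mark matches on either strand to the GC box letters GGGCGG or the RUNX core TGTGGT.
Chst11: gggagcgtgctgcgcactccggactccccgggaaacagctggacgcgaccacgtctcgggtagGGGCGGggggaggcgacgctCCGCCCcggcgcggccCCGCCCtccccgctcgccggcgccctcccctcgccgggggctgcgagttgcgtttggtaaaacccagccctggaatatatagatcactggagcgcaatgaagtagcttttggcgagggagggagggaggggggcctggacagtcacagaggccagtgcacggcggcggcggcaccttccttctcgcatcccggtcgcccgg
Papss2: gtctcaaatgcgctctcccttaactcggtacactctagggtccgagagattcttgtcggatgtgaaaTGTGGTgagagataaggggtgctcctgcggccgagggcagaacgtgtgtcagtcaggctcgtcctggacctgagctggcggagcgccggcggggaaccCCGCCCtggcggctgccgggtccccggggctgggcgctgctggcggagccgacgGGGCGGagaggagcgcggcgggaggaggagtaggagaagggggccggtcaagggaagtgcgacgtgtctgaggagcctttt
The Chst11 window held 3 GC box matches and no RUNX match. The Papss2 window held 2 GC box matches and 1 RUNX match. Among all 32851 windows in the table, 35.7% held a GC box and 16.8% a RUNX match. The SOX letters AACAAT, present in 10.7% of all windows, were in neither of the printed ones. The same held for the CRE letters TGACGTCA, present in 1.79% of all windows. A TATA match, searched as TATAAA and present in 13.6% of all windows, was also in neither. A second Papss2 window, at chr19:32619755-32620054 on the plus strand and not printed, held 1 SOX match and no GC box, RUNX, CRE or TATA match. These letters describe the windows and show no binding.

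Chst11 was lower in the hypertrophic than in the proliferative zone at both ages. The gene transfers sulfate to the 4-O position of chondroitin and lies on chromosome 10 at 82985498 to 83195900 (GRCm38, plus strand), with no exon shared with another gene in the GENCODE annotation. At P28 it had 7.71, 189 and 584 CPM in the hypertrophic sums of animals A, B and D, against 1021, 1150 and 3784 CPM in their proliferative sums. All 3 hypertrophic values lay under all 3 proliferative values. The log2 fold change was -3.36 ± 0.74 (SE), with an adjusted p of 0.00178 by edgeR's quasi-likelihood test with Benjamini-Hochberg adjustment, and 1.12% of all genes passed this test. At P2 Chst11 had 0, 22.2, 126 and 430.1 CPM in hypertrophic sums (A, C, D and G), against 182, 1020, 139 and 908 CPM in proliferative sums (A, D, E and G). These groups overlapped, although in each of the 3 animals with both zones the hypertrophic value was the lower. The P2 log2 fold change was -2.45 ± 0.73 (edgeR, adjusted p = 0.0409), where 2.31% of all genes passed.

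Chst11 was also higher in the resting than in the hypertrophic zone at P2. Resting sums of animals A, D, F and G had 289, 693, 598 and 754 CPM, against the hypertrophic values given above. The log2 fold change was 2.52 ± 0.75 (edgeR, adjusted p = 0.0302), with 3.77% of all genes past the threshold. At P28 the resting sums had 658, 1213 and 342 CPM, and the log2 fold change of 2.52 ± 0.77 against the hypertrophic zone missed the threshold (edgeR, adjusted p = 0.0570), which it passed without P28 animal D (3.73 ± 0.82, adjusted p = 0.00254). Resting and proliferative values overlapped at both ages, with a log2 difference of -0.84 ± 0.69 at P28 (-0.25 ± 0.71 without animal D) and 0.06 ± 0.67 at P2. Without P28 animal D, whose proliferative sum has the highest value, the P28 hypertrophic against proliferative log2 fold change was -3.99 ± 0.85 (edgeR, adjusted p = 0.00179). That call was lost without P28 animal A (edgeR, adjusted p = 0.282) or B (0.102), and with no animal term in the model (0.229). The P2 call against the proliferative zone was lost without P2 animal A (edgeR, adjusted p = 0.356), C (0.0530), D (0.418) or G (0.0611), and without P28 animal A (0.0567) or B (0.0970). The P2 resting call was lost without P2 animal A (edgeR, adjusted p = 0.429) or D (0.308), and without P28 animal B (0.0709). Of the alternatives other than leaving out an animal, 8 of 11 kept the P28 call, 2 of 10 the P2 call against the proliferative zone and 4 of 10 the P2 resting call.

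Csgalnact1, the N-acetylgalactosaminyltransferase that begins chondroitin chains, was lower in the P28 hypertrophic zone. The gene lies on chromosome 8 at 68356781 to 68735146 (GRCm38, minus strand). P28 animals A, B and D had 30.8, 13.2 and 18.8 CPM in hypertrophic sums, against 219.5, 152 and 694 CPM in proliferative sums. The groups did not overlap. The log2 fold change was -3.80 ± 1.01 (edgeR, adjusted p = 0.0227). In the P28 resting sums it had 167, 165 and 402 CPM, all above the hypertrophic values, with a log2 fold change of 3.53 ± 1.005 (edgeR, adjusted p = 0.0323, 1.77% of all genes passing). At P2 it had 221, 180.4, 229.7 and 271 CPM in resting sums (A, D, F and G), 0, 0, 132 and 25.6 CPM in hypertrophic sums (A, C, D and G) and 72.9, 233, 662 and 396 CPM in proliferative sums (A, D, E and G). The resting and hypertrophic values did not overlap at P2, but the log2 fold change of 2.82 ± 1.02 missed the threshold (edgeR, adjusted p = 0.0970), as did the -2.45 ± 0.98 of hypertrophic against proliferative (adjusted p = 0.188). Without P28 animal D the log2 fold changes were -3.13 ± 1.03 against the proliferative zone and 3.15 ± 1.04 for resting against hypertrophic. Both P28 calls were lost without P2 animal D or P28 animal A, B or D, with edgeR adjusted p of 0.0798, 0.144, 0.250 and 0.188 against the proliferative zone and 0.0793, 0.101, 0.349 and 0.179 for resting against hypertrophic. With no animal term in the model they were lost too, at edgeR adjusted p of 0.146 and 0.117, and of 11 alternatives other than leaving out an animal 5 kept the call against the proliferative zone and 6 the other.

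Chsy1, which polymerises the chondroitin backbone, was low in the P28 resting zone. It lies on chromosome 7 at 66109515 to 66173798 (GRCm38, plus strand) and shares 148 exon bases with the antisense gene Gm26827, whose reads cannot be told apart without strand. P28 resting sums of animals A, B and D had 27.9, 0 and 0 CPM, against 61.7, 281 and 471 CPM in their hypertrophic sums and 190.4, 98.1 and 142 CPM in their proliferative sums. The resting values did not overlap either other zone, and they rest on 5 counts, all from animal A. Against the hypertrophic zone the log2 fold change was -5.29 ± 1.24 (edgeR, adjusted p = 0.00341), and against the proliferative zone it was -4.18 ± 1.13 (edgeR, adjusted p = 0.0435, 0.561% of all genes passing). The median over all genes for resting against proliferative at P28 was itself -0.81 with TMM scaling and -0.24 with DESeq2-type size factors (RLE), and the call against the proliferative zone was lost with RLE (edgeR, log2 -3.62 ± 1.14, adjusted p = 0.214). For resting against hypertrophic the all-gene median was -0.27 with TMM and 0.12 with RLE, and the call was kept with RLE (edgeR, log2 -4.78 ± 1.23, adjusted p = 0.0203).

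At P2 no such gap was called for Chsy1. Resting sums had 48.6, 277, 85.8 and 117 CPM (A, D, F and G), hypertrophic sums 112, 433, 250.2 and 469 CPM (A, C, D and G) and proliferative sums 310, 123, 96.3 and 62.7 CPM (A, D, E and G), with overlap between all zones. The difference between the ages in resting minus hypertrophic was a log2 value of -4.28 ± 1.52 (edgeR, adjusted p = 0.274), or -2.77 ± 1.42 without P28 animal D (adjusted p = 0.582), so a difference between P28 and P2 was not called. The P28 call against the hypertrophic zone was lost without P28 animal B (edgeR, adjusted p = 0.280) or D (0.138), and that against the proliferative zone without P2 animal A (0.0581), C (0.0681), D (0.175) or G (0.0810) or P28 animal B (0.459) or D (0.353). The log2 fold change against the hypertrophic zone was -11.5 ± 2.30 without P28 animal A, which holds all 5 resting counts, -4.40 ± 1.56 without B and -3.80 ± 1.21 without D. Against the proliferative zone it was -9.91 ± 2.36 without A, -3.62 ± 1.38 without B and -3.32 ± 1.10 without D, so the sizes are loosely set. Of 11 alternatives other than leaving out an animal, 9 kept the call against the hypertrophic zone and 2 that against the proliferative zone, which was lost with no filter, with DESeq2, with no animal term and with thinning (edgeR or DESeq2, adjusted p = 0.123, 0.0634, 0.229 and 0.308).

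None of the 5 sulfate supply genes was called in a zone comparison, and their values are given without a call. Papss2 makes the sulfate donor PAPS, and its loss in mice gives short limbs. It had 77.1, 248 and 430.3 CPM in the P28 hypertrophic sums of A, B and D, against 1367, 838 and 1282 CPM in their proliferative sums, with no overlap. The log2 fold change was -2.26 ± 0.73 (edgeR, adjusted p = 0.102), and -2.77 ± 0.78 without P28 animal D (adjusted p = 0.0611). At P2 it had 24.0, 0, 237 and 460.1 CPM in hypertrophic sums against 286, 794, 181 and 969.9 CPM in proliferative sums, a log2 difference of -1.81 ± 0.72 (edgeR, adjusted p = 0.185). Its resting sums had 964, 813 and 391.5 CPM at P28 and 418, 729, 656 and 887 CPM at P2, and none of the resting comparisons was called.

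Impad1 lies next to Papss2 in role. It had 23.1, 225 and 16.1 CPM in P28 hypertrophic sums, against 283, 370.0 and 298 CPM in P28 proliferative sums, and the groups did not overlap (edgeR, log2 -2.41 ± 0.99, adjusted p = 0.281). Without P28 animal D the log2 value was -2.16 ± 0.999 (edgeR, adjusted p = 0.607). P28 resting sums had 27.9, 219.6 and 516 CPM. At P2 its values were 391.5, 174, 92.4 and 208 CPM in resting, 23.9, 0, 172 and 253 CPM in hypertrophic and 188, 328.5, 66.2 and 265 CPM in proliferative sums, with overlap throughout.

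Slc26a2, the plasma membrane sulfate transporter, had 7.71, 39.7 and 10.8 CPM in P28 hypertrophic sums, against 288, 229.7 and 277 CPM in P28 proliferative sums. The groups did not overlap, and the log2 fold change of -3.97 ± 1.16 lay just outside the threshold (edgeR, adjusted p = 0.0522). Without P28 animal D it was -3.60 ± 1.17 (edgeR, adjusted p = 0.175). Slc35b2, which carries PAPS into the Golgi, had 193, 9.93 and 61.9 CPM in P28 hypertrophic sums against 89.9, 115.5 and 336.5 CPM in P28 proliferative sums, which overlap. All 5 sulfate supply genes had a negative fold change in the hypertrophic against the proliferative zone at both ages. Their median log2 value was -2.26 at P28 and -0.997 at P2, beside -0.52 and -0.36 over all genes tested, and 0 of the 5 were called at either age with edgeR. Unadjusted p was under 0.05 for 3 of them at P28 and 1 at P2, beside 12.2% and 14.21% of all genes. For resting against hypertrophic at P28, 3 of the 5 had a positive and 2 a negative fold change.

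**Figure D2:**
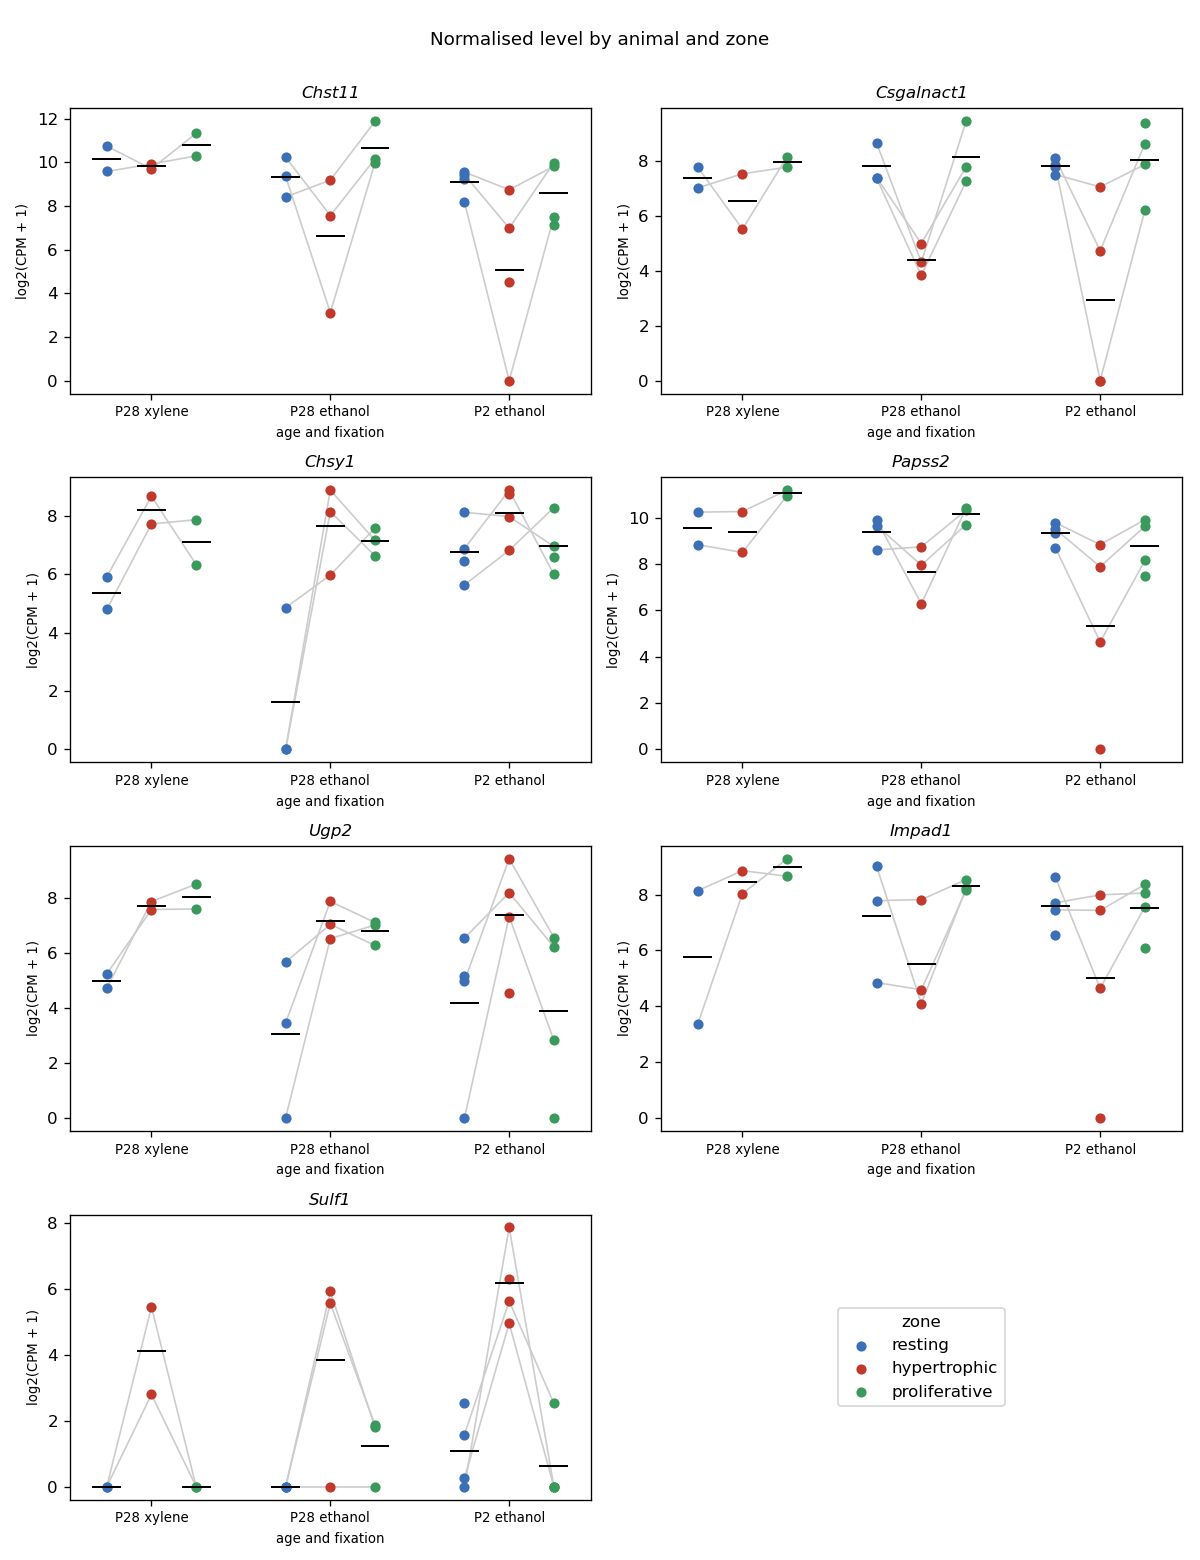
Level of the 7 genes given in full, as log2(CPM + 1), in each sum of P28 xylene, P28 ethanol and P2 ethanol libraries, with zones in colour, grey lines joining zones of the same animal and black bars for means. Chst11 and Csgalnact1 dip in the hypertrophic zone of ethanol sums, and Sulf1 is raised there.

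Sulf1, an extracellular enzyme that removes 6-O-sulfates from heparan sulfate, was counted almost only in the hypertrophic zone. It lies on chromosome 1 at 12692277 to 12861192 (GRCm38, plus strand), with no shared exon. At P2 it had 0, 1.99, 4.76 and 0.199 CPM in resting sums (A, D, F and G), against 232, 77.7, 48.4 and 30.0 CPM in hypertrophic sums (A, C, D and G). The groups did not overlap, and the log2 fold change of resting against hypertrophic was -6.70 ± 1.93 (edgeR, adjusted p = 0.0204). P2 proliferative sums had 0, 4.76, 0 and 0 CPM (A, D, E and G), also without overlap, but the hypertrophic against proliferative log2 fold change of 6.15 ± 1.95 missed the threshold (edgeR, adjusted p = 0.0623). Sulf1 was kept by the low-count filter through its hypertrophic sums, since the resting sums held 13 and the proliferative sums 4 counts. The test is therefore not independent of that filter, its call is no separate support for the zone difference, and its fold size is loosely set. The resting call was lost without P2 animal A (edgeR, adjusted p = 0.201), D (0.170) or G (0.279).

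The same zone carried the Sulf1 counts elsewhere in the series. P28 ethanol hypertrophic sums had 46.3, 59.6 and 0 CPM (A, B and D), against 2.64, 2.48 and 0 CPM in proliferative sums, while the 3 resting sums had 0 counts. These groups overlapped through animal D, and no P28 comparison of Sulf1 was called. For hypertrophic against proliferative the log2 value was 4.29 ± 2.12 (edgeR, adjusted p = 0.398), and 4.34 ± 1.98 without P28 animal D (adjusted p = 0.605). Over all 68 libraries, 14 of 23 hypertrophic libraries held 664 Sulf1 counts (307 of them in xylene libraries), 3 of 22 resting libraries held 13 counts and 5 of 23 proliferative libraries held 17 counts. In the ethanol libraries under 100000 counts, which were not tested, hypertrophic libraries held 11 counts at P2 and 8 at P28, and resting and proliferative libraries held 0. Its paralogue Sulf2 was counted in all zones, with 50.2, 29.9 and 17.8 CPM in P28 resting sums, 0, 43.0 and 0 CPM in P28 hypertrophic sums and 7.93, 3.73 and 0 CPM in P28 proliferative sums.

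Markers of other cells were read in the same hypertrophic sums. The 7 osteoblast and osteocyte markers summed to 84.8 to 874 CPM in P28 and 93.9 to 622 CPM in P2 hypertrophic sums, against 29.8 to 196 CPM in P28 and 5.88 to 182 CPM in P2 proliferative sums. In hypertrophic sums 4 of the 7 had counts at each age. The rest, Bglap, Bglap2 and Dmp1 at P28 and Bglap, Bglap2 and Sost at P2, were at 0. Bglap2 was also at 0 in the ethanol resting and proliferative sums of both ages. The 7 perichondrium and fibroblast markers summed to 829 to 6917 CPM in P2 resting sums, against 152 to 688 CPM in P2 hypertrophic sums. At P28 that order was the other way, with 121 to 753.5 CPM in resting and 408.6 to 2154 CPM in hypertrophic sums. The part of these cells in the Sulf1, Chst11, Ugp2, Chsy1 and Csgalnact1 differences was not tested.

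Ugp2, the enzyme that makes UDP-glucose for all of these chains, was lower in the resting than in the hypertrophic zone at P2. It lies on chromosome 11 at 21321138 to 21371201 (GRCm38, minus strand) and shares 78 exon bases with Gm12043 on the other strand. Resting sums had 0, 92.7, 34.8 and 30.6 CPM (A, D, F and G), against 160, 22.2, 293 and 691 CPM in hypertrophic sums (A, C, D and G). The groups overlapped only through hypertrophic animal C, and the log2 fold change was -4.10 ± 1.22 (edgeR, adjusted p = 0.0283). P2 proliferative sums had 6.08, 73.8, 0 and 93.8 CPM, and the hypertrophic against proliferative log2 difference of 3.34 ± 1.14 was not called (edgeR, adjusted p = 0.0966). At P28 it had 50.2, 9.98 and 0 CPM in resting, 131, 235 and 91.4 CPM in hypertrophic and 76.7, 138 and 129 CPM in proliferative sums. The P28 resting values lay under both other zones without a call, with a log2 value against the hypertrophic zone of -3.21 ± 1.19 (edgeR, adjusted p = 0.159) and -2.50 ± 1.15 without P28 animal D (adjusted p = 0.477). The P2 call was lost without P2 animal A (edgeR, adjusted p = 0.259), D (0.0856) or G (0.451), or P28 animal B (0.0506).

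Has2, which spins hyaluronan out through the plasma membrane, had 0, 21.9, 0 and 0.199 CPM in P2 resting sums, against 24.0, 0, 126 and 91.7 CPM in P2 hypertrophic sums. The log2 fold change was -5.40 ± 1.98 (edgeR, adjusted p = 0.102). In P28 resting sums it had 5.57, 0 and 0 CPM, against 30.8, 52.9 and 64.5 CPM in P28 hypertrophic sums, without overlap (edgeR, log2 -5.04 ± 2.11, adjusted p = 0.235). Without P28 animal D that value was -3.70 ± 2.21 (edgeR, adjusted p = 0.600). Has2 shares 182 exon bases with Has2os on the other strand.

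Chst3, a chondroitin 6-O-sulfotransferase, did not enter the tests. At P2 it had 0, 14, 110 and 7 counts in the resting sums of animals A, D, F and G, against 0 counts in every hypertrophic and proliferative sum. Most of these counts came from animal F, which has no sum in the other zones, so no fold is given.

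Across the 32 genes tested for each zone comparison, few were called and 27 were called in none. Hypertrophic against proliferative gave 2 lower and 0 higher at P28, where 0.575% of all genes were lower and 0.546% higher. At P2 it gave 1 lower and 0 higher, beside 1.18% and 1.14% of all genes. Resting against proliferative gave 1 lower and 0 higher at P28, beside 0.417% and 0.144% of all genes. That comparison gave 0 calls at P2 with edgeR and with DESeq2, where 1 gene (Csgalnact2) had an unadjusted p under 0.05 and 0.259% of all genes passed, 0.101% higher and 0.158% lower. Resting against hypertrophic gave 1 higher and 1 lower at P28, beside 0.546% and 1.22% of all genes. At P2 it gave 1 higher and 2 lower, beside 2.08% and 1.68% of all genes, and 1 of the lower was Sulf1, which the filter kept through its hypertrophic sums. The median log2 fold change of the 32 genes for hypertrophic against proliferative was -0.63 at P28 and -0.20 at P2, beside -0.52 and -0.36 over all genes tested.

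**Figure D3:**
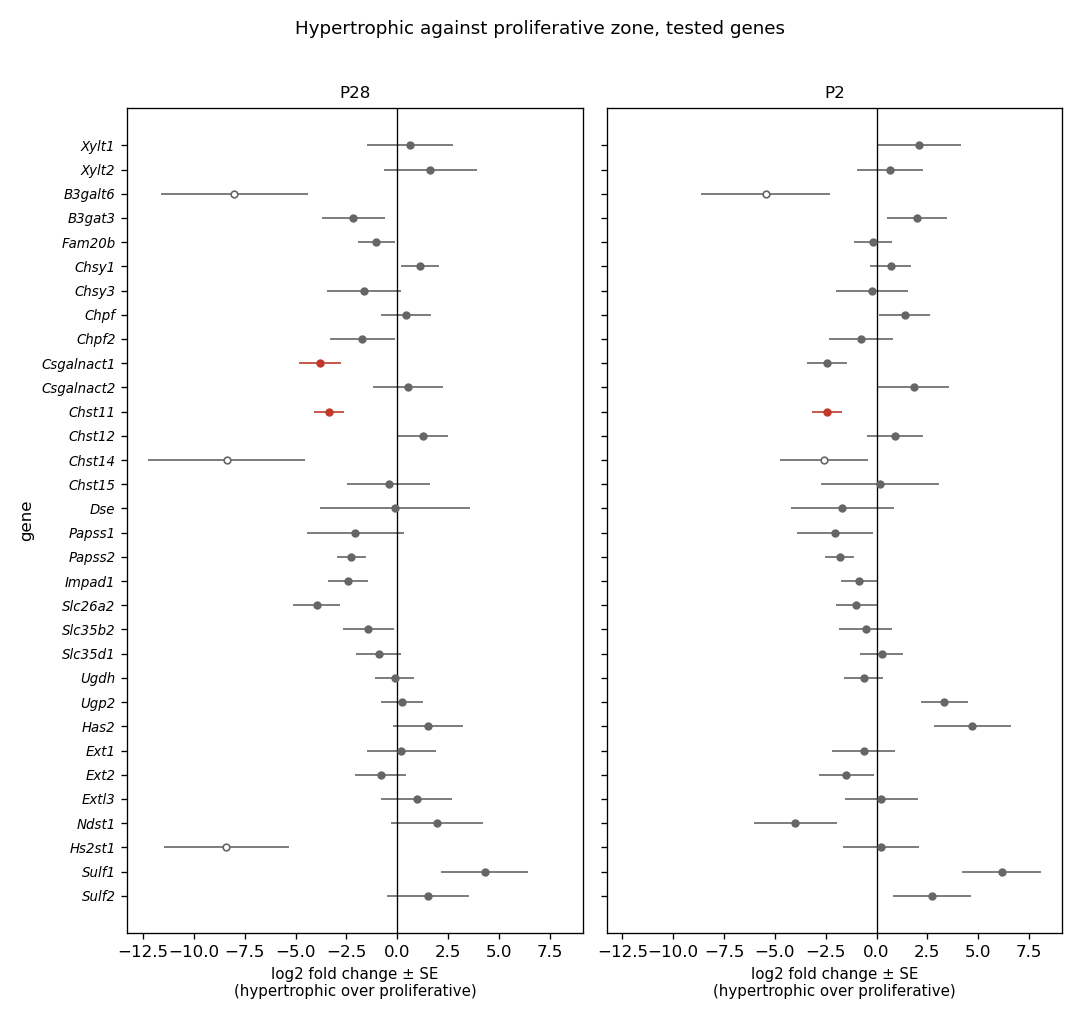
Log2 fold change with its SE of hypertrophic over proliferative zone for the 32 tested genes, at P28 (left) and P2 (right), from edgeR; red points passed the adjusted threshold of 0.05, and open points have 0 counts in 1 zone, so that their fitted fold is no bound. Chst11 passed at both ages and Csgalnact1 at P28.

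Linkage and heparan polymerase genes gave no call with edgeR in any of the 6 zone comparisons. Fam20b, the xylose kinase of the linker, was counted in all 21 sums, and its P28 levels were 50.2, 195 and 74.7 CPM in resting, 123, 36.4 and 425 CPM in hypertrophic and 193, 155 and 874 CPM in proliferative sums. Those zones overlapped. Ext1 and Ext2, the heparan co-polymerases, averaged 2.80 and 7.99 CPM per kb over the 21 sums. B3galt6, which adds the second linker galactose, had 0 counts in the ethanol hypertrophic sums of both ages. The P28 xylene hypertrophic sums of animals D and E held 89 and 21 counts of B3galt6. Its P2 resting sums had 0, 12, 45 and 174 counts in animals A, D, F and G. The P2 zones therefore overlapped through animal A, and B3galt6 was not called.

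Pairs of related genes differed in how their level per kilobase was shared. Papss2 held 90.0% to 100% of the Papss1 and Papss2 level in the 20 sums where either was counted. Chsy1 held a median of 96.99% of its pair with Chsy3, although 35.1% in the 1 P28 resting sum with counts, and Csgalnact1 held 87.3% of its pair with Csgalnact2. Chst11 held a median of 92.9%, 42.5% and 90.7% of its pair with Chst12 in resting, hypertrophic and proliferative sums at P28, and 90.2%, 50.6% and 92.7% at P2. The P2 hypertrophic shares ran from 0% to 100%, and the P28 xylene sums held 77.5% and 78.6% in hypertrophic against 83.6% and 90.6% in proliferative cartilage. Xylt1 was over 50% of its pair with Xylt2 in 8 of 16 sums. Sulf1 held a median of 9.17% of its pair with Sulf2 over 17 sums, and 81.9% in P2 hypertrophic sums. These shares are descriptions without a test.

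**Figure D4:**
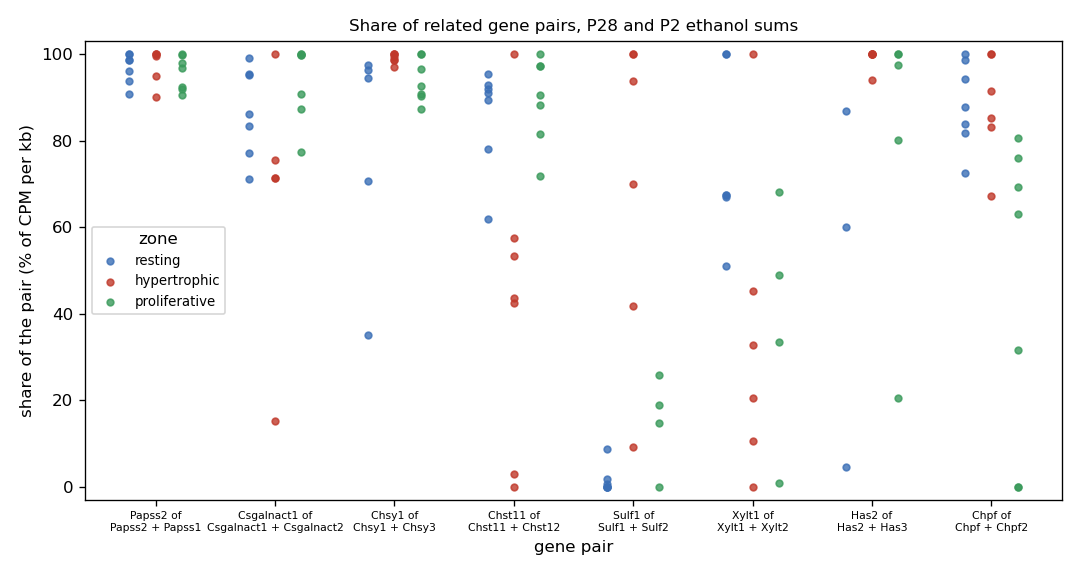
Share of the first gene in 8 pairs of related genes, as a percentage of the pair's CPM per kb, in each P28 and P2 ethanol sum, with zones in colour. Papss2 stays at 90.0% or more, and Chst11 has its lower shares in hypertrophic sums.

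Between P28 and P2, none of the 39 genes was called in any zone. Tested were 20 genes in resting, 14 in hypertrophic and 23 in proliferative sums, where 0.872%, 0.102% and 0.679% of all genes passed. Unadjusted p was under 0.05 for 3, 0 and 2 of them, beside 10.1%, 5.247% and 5.624% of all genes, and DESeq2 called 0 in each zone. Chst11 in the proliferative zone had 1021, 1150 and 3784 CPM at P28 against 182, 1020, 139 and 908 CPM at P2. The groups did not overlap, and the log2 difference was 1.49 ± 0.57 (edgeR, adjusted p = 0.421), and 1.17 ± 0.75 without P28 animal D (adjusted p = 0.999). Chsy1 in the resting zone had a log2 difference of -4.08 ± 1.47 (edgeR, adjusted p = 0.253), also without overlap, and of -3.51 ± 1.31 without P28 animal D (adjusted p = 0.423). Zone effects were also set against each other across ages, and 0 of the 32 genes were called with edgeR or DESeq2, where 0%, 0.144% and 0.273% of all genes passed for hypertrophic minus proliferative, resting minus proliferative and resting minus hypertrophic. Unadjusted p was under 0.05 for 3, 2 and 3 of the 32, beside 5.936%, 6.784% and 9.859% of all genes.

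Xylene-fixed P28 sections gave 2 animals per zone, D and E, of which D was also fixed in ethanol. None of the 34 genes tested was called between fixations with edgeR or DESeq2, and 0.11% of all genes passed. Unadjusted p was under 0.05 for 3 of the 34, beside 20.88% of all genes. The median over all genes was a log2 value of 1.23 with TMM scaling and 0.83 with RLE, and that of the 34 genes was 0.64. Chst11 was not called between zones in the xylene sums, which had 836 and 975.5 CPM in hypertrophic and 2594 and 1261 CPM in proliferative sums of D and E (edgeR over the 6 xylene sums, log2 -0.92 ± 0.60, adjusted p = 0.963). Csgalnact1 had 218 and 129 CPM in xylene resting, 44.8 and 184 CPM in xylene hypertrophic and 285 and 218 CPM in xylene proliferative sums. In animal E its resting value lay below the hypertrophic one, and over the xylene sums alone the resting against hypertrophic log2 value was 0.76 ± 0.79 (edgeR, adjusted p = 0.841). For Chsy1 the xylene sums did not overlap either, with 58.9 and 26.7 CPM in resting against 407 and 210.0 CPM in hypertrophic sums (edgeR, log2 -2.80 ± 0.80, adjusted p = 0.0515). Sulf1 had 42.8 and 5.96 CPM in xylene hypertrophic sums and 0 counts in the xylene resting and proliferative sums. In those hypertrophic sums the osteoblast list was at 24560 and 364 CPM and the perichondrium list at 48260 and 1281 CPM, and their part in these values was not tested.

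The P3 animal, with 1 library per zone and no test, had 922, 357 and 809.9 CPM of Chst11 in resting, hypertrophic and proliferative zones. Its Sulf1 level was 0 in resting, 91.8 in hypertrophic and 3.42 CPM in proliferative, and its Ugp2 level was 43.1, 384 and 68.3 CPM in the same order of zones. Chsy1 had 249, 506 and 158.5 CPM there.

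Several genes on a list of core proteins were called between zones. The list also holds leucine-rich matrix proteins, some with keratan sulfate, which is not among the chain types of the set. Of the 32 listed genes 24 were tested. In the hypertrophic against the proliferative zone, 5 were lower and 0 higher at P28, beside 0.575% and 0.546% of all genes, and 2 were lower and 1 higher at P2, beside 1.18% and 1.14%. Prelp, a leucine-rich repeat protein of cartilage, had a log2 fold change of -4.36 ± 0.68 at P28 (edgeR, adjusted p = 2.48e-07) and -5.63 ± 0.76 at P2 (adjusted p = 2.34e-10). Fmod, a collagen-binding keratan sulfate proteoglycan, had -2.77 ± 0.62 at P28 (edgeR, adjusted p = 0.00253) and -4.49 ± 0.71 at P2 (adjusted p = 1.75e-07). Also lower at P28 were Gpc6 at -5.451 ± 1.285, Epyc at -3.57 ± 0.89 and Sdc4 at -3.51 ± 0.90 (edgeR, adjusted p = 0.0053, 0.0114 and 0.0137). Gpc1, a heparan sulfate proteoglycan of the cell surface, was higher in the P2 hypertrophic zone by 2.92 ± 0.77 (edgeR, adjusted p = 0.0128). Resting against hypertrophic gave 2 higher and 0 lower at P28, beside 0.546% and 1.22% of all genes. At P2 it gave 8 higher and 5 lower, beside 2.08% and 1.68% of all genes. Among the higher were Dcn (decorin) at 6.73 ± 1.07 and Bgn (biglycan) at 3.08 ± 0.64 (edgeR, adjusted p = 1.32e-07 and 0.000226). Among the lower was Gpc1 at -4.69 ± 0.85 (edgeR, adjusted p = 7.51e-06). Dcn is a fibroblast gene too, and the perichondrium list was higher in the same P2 resting sums, as given above.

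The other pathway lists gave few calls. Sugar nucleotide and hyaluronan genes had 1 of 10 lower in the P28 hypertrophic against the proliferative zone, beside 0.575% of all genes. It was Gfpt2 (log2 -5.72 ± 1.60, edgeR, adjusted p = 0.0338), a rate-limiting enzyme of the hexosamine pathway. Breakdown genes had 1 higher and 1 lower of 13 in P2 resting against hypertrophic, beside 2.08% and 1.68% of all genes. These were Idua and Cd44, which are named after their values were seen. Cd44 is on both lists and is also counted among the lower core protein genes above. Keratan sulfate genes, the other chondroitin and dermatan genes and the other heparan genes had 0 calls in any zone comparison with edgeR, of 4, 5 and 5 tested. Unadjusted p was under 0.05 in at most 1 gene of each of these lists in any zone comparison.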

How the data were processed

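Per the labels' protocols, cartilage zones were taken by laser capture and amplified as SMART-seq2 libraries. The deposited values are raw counts per gene and run, which the authors made with cutadapt, STAR 2.5.2b, Subread and featureCounts 1.5.3 on mm10, per the submitters' processing notes. No source used here gives the annotation, the strand setting or how multi-mapped reads were handled. The 100 columns gave 68 libraries, since 32 libraries had 2 columns that were added together as repeat runs. In 25 of these pairs the columns agreed within sampling noise (chi-square per gene up to 1.031), and in the other 7, with too few genes for this check, it was 0.165 to 1.521. Library totals ran from 748 to 3347722 counts, and 25 of 51 ethanol P2 and P28 libraries, below 100000 counts, were not tested.

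Libraries were summed per animal and zone, because zones of 1 animal share their source. edgeR 4.0.16 (R 4.3.3, quasi-likelihood test, TMM scaling, low-count filter, Benjamini-Hochberg adjustment) was fitted to 6958 genes over 21 sums. The SE given with an edgeR fold change is its size divided by the square root of the test's F statistic. The model held a block for each animal plus zone terms separate for P28 and P2, and calls needed an adjusted p under 0.05. The block takes up the only sum of P2 animals C, E and F. Those sums reach the zone results only through the filter, the scaling and the shared estimate of spread. Same-animal sums come from the labels, and their deviations correlated at -0.00358 to 0.187. Ages were compared zone by zone in a model with a term for the 2 deposit sets (with or without a coded description), and fixation over 15 P28 sums. DESeq2 1.42.0, RLE scaling, no filter, depth and block choices and leaving out each animal were the alternatives. Each zone p-value measures how zone differences spread between animals with more than 1 zone, pooled over both ages. Each age p-value measures the spread between animals of a zone. Both hold only as far as the labels name single animals. The fixation model had terms for zone and deposit set but none for animal. Sums of the same animal are not independent there, and animal D gave sums under both fixations, so the fixation p-values do not measure spread between animals. Exon lengths and overlaps came from GENCODE M21 (GRCm38). The fit was also run on simulated counts drawn without differences between animals, so that run is no check of the animal block. Members and gene lists were chosen with earlier results of these data known. Any of the 39 genes could be named. Those called, and the 6 highest per kb, are given in full by sample, and up to 6 called pathway genes per comparison are named by smallest adjusted p. Coordinates are 1-based.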

Additional observations from a re-analysis of the deposited data

Results flagged for a closer look

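In 5 of 45 groups of 4 sums looked at, 1 sum lay far from the others. Chance alone would mark about 1 in 20 groups if values were normally spread. Low CPM with many zeros need not be, so that rate is no measure of an excess here. Extl3, a heparan chain starter, had 105.6 CPM in the P2 hypertrophic sum of animal G. Ust, a uronyl sulfotransferase, had 36.12 CPM in the P2 proliferative sum of animal E. Ndst1 and Hs6st1, which sulfate heparan chains, had 82.68 and 65.66 CPM in the P2 resting sum of animal A. Sulf2 had 132.5 CPM in the P2 resting sum of animal F. None of these genes was called in a zone comparison with edgeR, and Ust and Hs6st1 did not pass the low-count filter.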

How the results depend on the processing

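Fold changes were recomputed only for genes given in full, where the main edgeR fit had an unadjusted p under 0.05. A kept direction was therefore likely from the start. Direction was kept for all 474 recomputed values, of which 375 stayed on their side of the threshold, 79 fell short of it and 20 newly passed it. Of 225 recomputed counts of called genes, 164 stayed within 1.5 times and 61 did not, and the cause was not tested. The P28 hypertrophic against proliferative count was 2. It was 4 with DESeq2 and with each animal label as its own animal, 1 with no filter, with a minimum of 50000 counts outside Rn45s, Lars2 and Glra2 and with sums thinned to 51365 counts, 0 with no replicate block and with xylene sums alone, and 0 to 3 leaving out 1 animal. At P2 that count was 1. It was 4 with DESeq2, 0 with RLE, no filter, the 50000 minimum, xylene sums added, thinning and 2 weak hypertrophic libraries left out, and 0 to 3 leaving out 1 animal.

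For resting against hypertrophic at P28 the count was 2. It was 5 with DESeq2, 4 with xylene sums added, 1 with no filter, the 50000 minimum and no replicate block, 0 with xylene sums alone, and 0 to 2 leaving out 1 animal. At P2 it was 3, against 6 with DESeq2, 1 with no replicate block, 0 with no filter, the 50000 minimum and thinning, and 0 to 5 leaving out 1 animal. Resting against proliferative at P28 went to 0 with RLE, no filter, DESeq2, the 50000 minimum, no replicate block, xylene sums added or alone, thinning and the 2 weak libraries left out, and lay at 0 to 1 leaving out 1 animal. The age difference in resting minus hypertrophic lay at 0 to 1, the 1 being Chsy1 without P28 animal A. Xylene sums alone and leaving out the 2 weak libraries were chosen after seeing the data. Fixation without P28 animal D could not be fitted. With 20032 counts outside the 3 symbols in the weakest sum, a count of 0 there does not show absence.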
